A study of Mus musculus with 14 samples.

Results

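Reln and 6 genes that mark Cajal-Retzius cells together with it (Trp73, Lhx1, Lhx5, Ebf3, Calb2 and Ndnf) were followed through RNA sequencing of newborn mouse cortex. They were taken by name, with the values of all transcripts of a gene added up, and are 7 of the 51626 gene symbols listed in each of the 3 tables of values. The study held 14 libraries from postnatal day 0.5. Frontal cortex, dissected as rostral cortex, gave polyA RNA libraries from 4 wild type animals of strain C57BL6/J and from 4 conditional knockouts of Auts2 (cKO). The cKO animals carried 2 floxed copies of Auts2 exon 15 and Emx1-cre, which drives recombination in the progenitors of cortical excitatory neurons. Whole cortex of C57BL6/J animals gave the RNA immunoprecipitation (RIP) set, in which each replicate was 2 pooled neonates. Lysate was pulled down with an AUTS2 antibody raised to its C-terminal end (AUTS2 RIP, 2 libraries) or with control IgG (2 libraries), and 10% of it was kept as input (2 libraries), as matched trios A and B made from total RNA. Animals with Cre alone or floxed alleles alone were not analysed here, and the labels do not say whether the Cre acts in Cajal-Retzius cells. The labels call the libraries biological replicates.

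Cajal-Retzius cells are among the first neurons of the cortex. They lie in its outermost layer, are born mainly at the cortical hem and other borders of the pallium, and secrete reelin, the large glycoprotein encoded by Reln. Reelin binds the receptors Vldlr and Lrp8 on migrating neurons, Src family kinases then phosphorylate the adaptor Dab1, and the signal reaches Crk, Rap1, PI3 kinase, Lis1 and the cytoskeleton. It is known for ordering the layers of the cortex. GABAergic interneurons also make reelin after birth, and both Calb2 and Ndnf are shared with them. RNA came from whole tissue, so fewer cells of a type and less RNA per cell cannot be told apart in any comparison.

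The sequences that tell the Reln transcripts of interest apart lie at the 3' end of the gene, on the minus strand of chromosome 5 (GRCm38, chr5:21884454-22344702). They are shown because the main Reln mRNA, Reln-213 and Reln-215 separate at the end of exon 63. Reln-213 and Reln-215 are short transcripts described from the pull-down. Another of these, Reln-214, starts further along the next intron. The main transcript, Reln-207, has 65 exons and 11699 bases. Its exon 64 is a microexon of 6 bases, a type of exon that brain Reln is known to include. Reln-201, of 64 exons and 10885 bases, skips it. Reln-213 is annotated as a retained intron and starts with the first base after exon 63. Capitals mark exon 64 in the first pair of sequences and the end of exon 63 in the last. The remaining one is spliced without exon 64 and has no capitals.
Reln exon 64 with its flanking introns, chr5:21891538-21891591: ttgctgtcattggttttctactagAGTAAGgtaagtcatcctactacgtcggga
Reln-207, spliced from exon 63 to exon 65: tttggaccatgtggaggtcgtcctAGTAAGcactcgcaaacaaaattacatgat
Reln-201, spliced without the microexon: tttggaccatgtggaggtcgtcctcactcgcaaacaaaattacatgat
Exon 63 and the first bases of Reln-213, chr5:21895959-21896012: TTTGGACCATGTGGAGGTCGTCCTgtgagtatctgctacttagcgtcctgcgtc

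Values are FPKM, a unit scaled for transcript length and for library depth, so levels of different genes can be set side by side. Without read counts the depth is unknown, and the error bars below cover only the spread between libraries. The summed FPKM of a library ran from 282029 to 340979. Auts2, the targeted gene, was lower in the cKO, at 32.5 ± 2.78 FPKM (SD, n = 4) against 74.0 ± 18.6 in wild type (log2 fold change −1.13, limma adjusted p = 0.0237). That value sums all Auts2 transcripts and does not measure exon 15. Among the other cell types that could give Reln, Calb2 or Ndnf, 14 GABAergic neuron genes summed to 285.5 to 437 FPKM in frontal cortex with none at 0. The 10 meningeal genes summed to 11.95 to 15.9 FPKM with 0 to 3 at 0, and 4 olfactory bulb genes to 6.85 to 12.7 FPKM. The olfactory bulb genes were Tbx21, Cdhr1, Th and Eomes, of which 1 or 2 reached 1 FPKM in each library. Of the meningeal genes 1 did. The 6 excitatory neuron genes summed to 628 to 717 FPKM.

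Reln stood far above the other Cajal-Retzius genes in every group. In wild type frontal cortex it averaged 46.5 ± 2.56 FPKM (SD, n = 4), and 1367 of the 12786 genes tested had a higher mean over the 8 libraries. Calb2, which encodes the calcium-binding protein calretinin, followed at 9.01 ± 2.54 FPKM. Ndnf, which encodes a secreted neuron-derived factor, averaged 3.66 ± 0.492 FPKM, and Trp73, the p53 relative that Cajal-Retzius cells need to survive, 1.77 ± 0.111 FPKM. The transcription factor genes were lowest, with Ebf3 at 0.827 ± 0.274, Lhx5 at 0.509 ± 0.108 and Lhx1 at 0.315 ± 0.137 FPKM. From Reln down to Lhx5, the 4 wild type values of each gene did not overlap with those of the next in this order, whereas Lhx5 and Lhx1 overlapped. The order in the cKO was the same, with Ebf3 and Lhx5, and Lhx5 and Lhx1, overlapping. In the pull-down set, which was made from whole cortex with another library kit, Ndnf stood above Calb2 in the mean of each group. The 2 genes overlapped in the IgG and input libraries. This order rested on a retained-intron transcript of Ndnf. With protein-coding transcripts alone, Ndnf averaged below Calb2, at 5.17 against 5.60 FPKM in the RIP, 7.84 against 8.25 with IgG and 6.83 against 7.09 in the input.

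**Figure D1:**
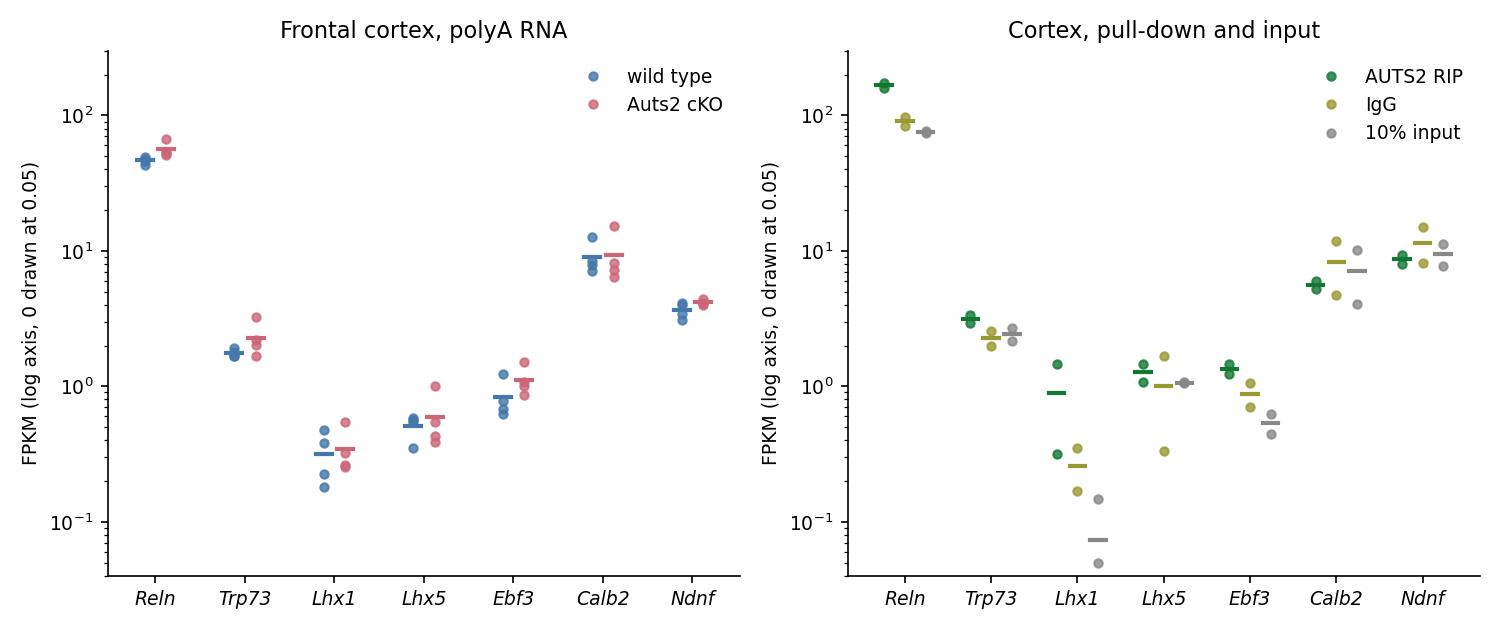
FPKM of the 7 Cajal-Retzius genes on log axes, for frontal cortex (left, 4 wild type and 4 cKO libraries) and for the pull-down set (right, 2 AUTS2 RIP, 2 IgG and 2 input libraries). Points are libraries and bars are group means, with a value of 0 drawn at 0.05. The 2 RIP values of Reln, 160.1 and 175 FPKM, lie above the IgG and input values, and 1 cKO library is the highest point of 6 genes in frontal cortex.

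The first comparison asks whether the Cajal-Retzius genes differed between cKO and wild type frontal cortex. Reln was 1.21 times as high in the cKO mean, but none of the 4 members tested passed the threshold of an adjusted p below 0.05, and 1 of them (Reln) had an unadjusted p below 0.05. Over all genes, limma called 0.0235% of the 12786 tested, and 7.91% had an unadjusted p below 0.05. Lhx1, Lhx5 and Ebf3 averaged below 1 FPKM over the 8 libraries and were not tested.

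Reln was at 67.0, 54.0, 52.6 and 51.0 FPKM in cKO 1 to 4 and at 47.6, 49.2, 45.95 and 43.2 FPKM in wild type 1 to 4. Every cKO value was above every wild type value, and cKO 1 stood apart at the top. Among all genes tested, 2.65% lay without overlap on the higher side in the cKO. The cKO averaged 56.2 ± 7.33 FPKM and wild type 46.5 ± 2.56 FPKM (SD, n = 4 each). On the log2(FPKM + 1) scale the difference was 0.26 (SE 0.09, 95% interval 0.07 to 0.45), and 3.36% of genes had a larger rise. The unadjusted p was 0.00994 and the limma adjusted p 0.628. Without cKO 1 the difference was 0.18 with a limma adjusted p of 0.573.

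Trp73 was at 3.25, 2.21, 1.67 and 2.02 FPKM in cKO 1 to 4 and at 1.91, 1.68, 1.79 and 1.68 FPKM in wild type 1 to 4. The groups overlapped, since cKO 3 was the lowest of the 8 libraries and cKO 1 the highest. The log2 difference was 0.23 (SE 0.13, limma adjusted p = 0.641).

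Calb2 was at 15.2, 7.27, 6.38 and 8.15 FPKM in the cKO libraries, beside 12.7, 7.86, 8.40 and 7.07 FPKM in wild type. The first library of each group was high and the other 6 lay close together, so the groups overlapped throughout. The log2 fold change was −0.01 (SE 0.22, 95% interval −0.50 to 0.48, limma adjusted p = 0.993). Its direction changed when single libraries were left out.

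Ndnf was at 4.01, 4.40, 4.10 and 4.14 FPKM in the cKO libraries, beside 3.44, 3.07, 4.14 and 3.98 FPKM in wild type. The cKO values were close together, and 1 wild type value, that of wild type 3, reached into their range. On the log2 scale the groups differed by 0.16 (SE 0.10, limma adjusted p = 0.652).

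Ebf3, a transcription factor gene of Cajal-Retzius and other differentiating neurons, was at 1.51, 1.01, 0.861 and 1.07 FPKM in cKO animals, beside 1.23, 0.675, 0.624 and 0.783 FPKM in wild type. Lhx5, a LIM homeobox gene needed for forming these cells, was at 1.00, 0.544, 0.428 and 0.391 FPKM in cKO animals, beside 0.583, 0.349, 0.541 and 0.564 FPKM in wild type. The related gene Lhx1 was at 0.548, 0.322, 0.255 and 0.261 FPKM in cKO animals, beside 0.380, 0.475, 0.225 and 0.180 FPKM in wild type. In all 3 genes the groups overlapped, and cKO 1 was the highest library.

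Library cKO 1 was thus the highest of the 8 for 6 of the 7 members, the exception being Ndnf, which was highest in cKO 2. Genes of GABAergic neurons stood high in the same library. Their summed level was 437 FPKM in cKO 1, 351 in cKO 4, with the remaining 6 between 285.5 and 304. Sst, the somatostatin gene of a class of interneurons, was at 155 FPKM in cKO 1 and had a wild type range of 42.5 to 67.4 FPKM. The part of these cells in the Reln values was not tested. The summed level of the meningeal genes in the cKO, 11.95 to 13.9 FPKM, lay within or just below the wild type range of 12.6 to 15.9 FPKM. The olfactory bulb genes summed to 10.05 FPKM in cKO 1, the top of a cKO range from 6.98 FPKM. In wild type 1 they summed to 12.7 FPKM, the top of a wild type range from 6.85 FPKM. In both libraries only 2 of the olfactory bulb genes reached 1 FPKM. These libraries were also the highest of their group for Calb2, and the part of olfactory bulb tissue was not tested.

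**Figure D2:**
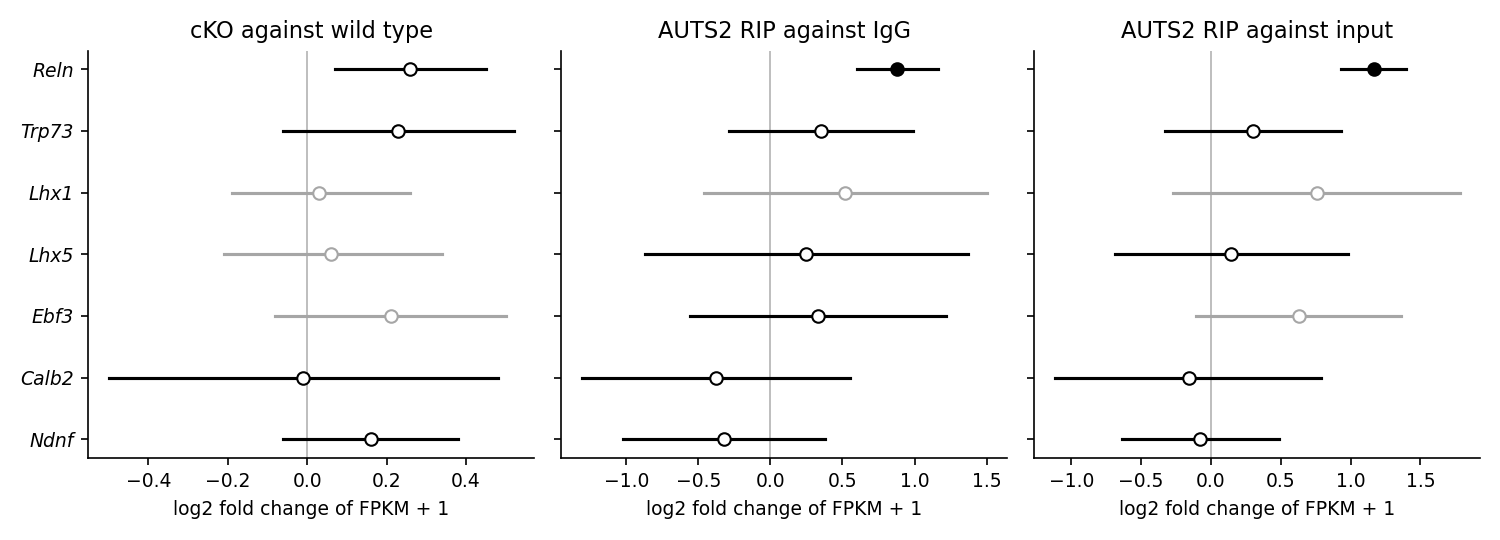
Log2 fold changes of FPKM + 1 for the 7 genes in the 3 comparisons, with 95% intervals. Filled points passed a limma adjusted p below 0.05, and grey points are genes under the filter of a mean of 1 FPKM, from the fit without the filter. Reln passed against IgG (0.88) and against input (1.17), and no gene passed in the cKO.

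The Reln mRNA in frontal cortex was mostly the form with the microexon. Reln-207 was at 40.0, 39.2, 38.7 and 39.9 FPKM in cKO 1 to 4 and at 35.4, 36.2, 35.1 and 32.7 FPKM in wild type 1 to 4. Its cKO values lay in a narrow band above all wild type values, and cKO 1 did not stand apart. Over genes 2.65% lay so, and the share over transcripts was not counted. The log2 difference was 0.18 with a limma adjusted p of 0.828 over 26722 transcripts (0.0119 before adjustment), of which 0.00374% were called higher. Reln-201, the form without the microexon, reached no more than 0.296 FPKM in these 8 libraries. The 2 forms also differ in length by more than the microexon, so their estimates do not rest on those 6 bases alone.

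The height of cKO 1 in the summed Reln value lay in short transcripts. Reln-205, of 891 bases, has a longer form of exon 64 with 136 bases and is annotated as a processed transcript without a protein. It was at 17.1 FPKM in cKO 1, at 9.21, 6.74 and 5.34 FPKM in the other cKO libraries and at 5.15 to 7.58 FPKM in wild type. With the retained-intron transcript Reln-203 it made up 34.3% of Reln FPKM in cKO 1, beside 13.2% to 19.3% elsewhere in frontal cortex. With protein-coding transcripts alone, an alternative chosen after the data were seen, Reln averaged 39.5 ± 0.629 FPKM for the cKO against 35.0 ± 1.37 FPKM for wild type (SD, n = 4 each, log2 difference 0.17, limma adjusted p = 0.598).

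Trp73 has 2 main starts. The upstream one gives the full-length protein, and the inner one gives the ΔN form without the transactivation domain, which is known as the form that protects neurons. The promoter before the inner start is shown because transcripts from there carried most Trp73. It covers the 250 bases before the start in the RefSeq table of GRCm38.p6, and capitals mark a GC box (GGGCGG), which begins 16 bases before the start.
Trp73 inner promoter, chr4:154097174-154097423, minus strand: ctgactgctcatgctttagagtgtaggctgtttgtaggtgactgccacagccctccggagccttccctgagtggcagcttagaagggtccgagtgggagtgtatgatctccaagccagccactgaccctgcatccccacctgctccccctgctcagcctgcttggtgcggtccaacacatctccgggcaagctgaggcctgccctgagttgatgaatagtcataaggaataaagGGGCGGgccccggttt
On either strand GGGCGG is in 32.7% of the 32851 promoter windows of that table, and TATAAA, which this window lacks, is in 12.4%.

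Transcripts from the inner start held 87.7% ± 10.2 of Trp73 FPKM for wild type, then 79.6% ± 12.9 in the cKO (SD, n = 4 each). A single transcript of 12 exons and 4752 bases carried nearly all of it, at 1.74, 1.39, 1.79 and 1.29 FPKM for wild type and 2.91, 1.40, 1.26 and 1.83 FPKM for the cKO. The groups overlapped (log2 difference 0.13, limma adjusted p = 0.905), and cKO 1 was again highest. The upstream transcript, of 14 exons and 5042 bases, stayed between 0 and 0.344 FPKM in wild type and between 0.196 and 0.812 FPKM in the cKO. In the pull-down set the inner start held 78.6% and 90.5% of Trp73 in RIP A and B, 75.7% and 52.7% in IgG A and B, and 39.1% and 100% in input A and B. In input A the upstream transcript held 14.7% and transcripts from other starts 46.2%. The split thus varied more between the input libraries than between groups.

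The pull-down comparisons ask which RNAs were recovered with AUTS2 over control IgG and over input. They share the 2 RIP libraries, so each is given by its own values, and the tables for the 2 comparisons were scaled apart. Unless the table with input is named, RIP values are those of the table with IgG, and in the other table the same libraries stood higher by a median factor of 1.018 (A) and 1.015 (B). Reln rose in both, to 1.85 times the IgG mean and 2.27 times the input mean. Against IgG it was the 1 member called of 6 tested, where 13.7% of the 14570 genes were called higher, 9.69% lower and 23.4% in either direction. Against input it was the 1 member called of 5 tested, where 19.3% of the 14458 genes were called higher, 16.6% lower and 35.9% in either direction. These counts of members lie near the share over all genes. With 2 libraries a group the spread of each gene is known poorly, and limma draws on all genes to estimate it.

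Reln was at 175 and 160.1 FPKM in AUTS2 RIP A and B and at 97.6 and 83.8 FPKM in IgG A and B. The lowest RIP value was far above the highest IgG value. The RIP averaged 167 ± 10.4 FPKM and the IgG 90.7 ± 9.73 FPKM (SD, n = 2 each). The log2 fold change was 0.88 (SE 0.12, 95% interval 0.60 to 1.16, limma adjusted p = 0.00555), and 7.97% of genes had a larger one. Without IgG A no gene passed, and Reln stood at 0.99 with a limma adjusted p of 0.0503. With trends over transcript length and GC content removed it stood at 0.57 (limma adjusted p = 0.0247).

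In the table with input, Reln was at 178 and 162.5 FPKM in RIP A and B and at 76.55 and 73.6 FPKM in input A and B. The input pair lay close together, well under both RIP values. On the log2 scale the groups differed by 1.17 (SE 0.10, 95% interval 0.93 to 1.40, limma adjusted p = 0.00105), and 7.03% of genes had a larger one. It stood at 0.69 (limma adjusted p = 0.00496) with the length and GC trends removed.

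The other members did not pass against either control. Trp73 was at 3.38 and 2.92 FPKM in the RIP, 2.56 and 1.98 FPKM with IgG and, in the other table, 2.70 and 2.16 FPKM in the input. Its RIP values lay above both controls. The log2 difference was 0.35 (SE 0.27, limma adjusted p = 0.385) against IgG and 0.30 (SE 0.26, limma adjusted p = 0.404) against input, and both turned negative with the length and GC trends removed.

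Ebf3 was at 1.47 and 1.23 FPKM in the RIP, 0.698 and 1.05 FPKM with IgG and 0.628 and 0.446 FPKM in the input. The RIP values did not overlap with either control, but the gene was too low to be tested against input, and the log2 difference of 0.33 (SE 0.37) from IgG had a limma adjusted p of 0.553. Lying without overlap on the higher side was common, at 34.3% of genes against IgG and 35.9% against input. Besides Reln, it held for Trp73 and Ebf3 against IgG and for Trp73, Lhx5 and the untested Lhx1 and Ebf3 against input.

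Lhx5 was at 1.07 and 1.46 FPKM in the RIP, 1.69 and 0.334 FPKM with IgG and 1.05 and 1.07 FPKM in the input, beside 1.09 and 1.48 FPKM for the RIP in that table. The 2 IgG libraries lay on both sides of the RIP pair. The log2 fold change was 0.25 (limma adjusted p = 0.730) against IgG and 0.14 (limma adjusted p = 0.767) against input. Lhx1, which was not tested, was at 1.46 and 0.315 FPKM in the RIP, beside 0.169 and 0.351 FPKM with IgG. In the input it was at 0.147 FPKM in A and listed at 0 in B. The high value in RIP A came in part from a transcript of 382 bases, at 0.857 FPKM there and listed at 0 in the other 5 pull-down libraries.

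Calb2 was at 5.20 and 6.00 FPKM in the RIP, 11.8 and 4.71 FPKM with IgG and 10.2 and 4.02 FPKM in the input. The A libraries of both controls were more than double their B libraries, and the RIP values lay between them. On the log2 scale the groups differed by −0.38 (SE 0.38, limma adjusted p = 0.520) against IgG and −0.16 (SE 0.39, limma adjusted p = 0.766) against input.

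Ndnf was at 9.27 and 7.995 FPKM in the RIP, 8.10 and 14.9 FPKM with IgG and 7.67 and 11.2 FPKM in the input. Again the RIP values overlapped with both controls. The log2 difference was −0.32 (SE 0.29, limma adjusted p = 0.459) against IgG and −0.08 (SE 0.23, limma adjusted p = 0.815) against input. Its 2 transcripts differed in their spread. The mRNA, of 10101 bases, was at 5.25 and 5.09 FPKM in the RIP against 7.82 and 7.87 FPKM with IgG. Its log2 difference was −0.52 (limma adjusted p = 0.239 over transcripts). A retained-intron transcript of 527 bases was at 4.02 and 2.90 FPKM in the RIP, beside 0.285 and 7.005 FPKM with IgG, and it reached at most 0.589 FPKM in frontal cortex.

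Part of the Reln signal lay in short transcripts that lie in, or reach into, the introns around exon 64. Reln-215 also holds exon bases that it shares with the mRNA. Together Reln-213, Reln-214 and Reln-215 made up 32.3% and 36.3% of Reln FPKM in RIP A and B, 23.1% to 26.3% in the IgG and 15.5% to 18.1% in the input libraries. In the polyA libraries of frontal cortex their share ran from 6.54% to 9.64% among wild types and from 5.23% to 7.91% among cKO libraries. These 3 were put together after their values in the RIP were seen, so the shares describe these libraries and carry no test. Reln-201 is likewise named after its values were seen. The shares rest on how the authors' program divided fragments between overlapping transcripts. They also rest on its estimate of the effective length of short transcripts such as Reln-213, a value not analysed here. Tissue area, RNA selection and library kit differ between the 2 sets and cannot be told apart.

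Reln-213, of 356 bases (chr5:21895633-21895988), starts right after exon 63. It was at 28.3 and 28.2 FPKM in the RIP, 16.4 and 10.1 FPKM with IgG and 6.35 and 8.08 FPKM in the input. Reln-214, a retained intron of 3355 bases (chr5:21890542-21893896) that spans the microexon and the introns beside it, was at 11.5 and 12.5 FPKM in the RIP, 3.67 and 2.81 FPKM with IgG and 2.86 and 1.07 FPKM in the input. Reln-215 joins exons 61 to 63 to an exon of 329 bases in the next intron (chr5:21894905-21895233). It was at 16.6 and 17.4 FPKM in the RIP, 5.63 and 6.41 FPKM with IgG and 2.67 and 4.195 FPKM in the input. For Reln-213, Reln-214 and Reln-215 alike the RIP values lay above those of both controls, as they did for 32.1% of all transcripts tested against IgG and 35.4% against input.

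With each transcript as its own feature, limma called 0% of the 31647 transcripts higher against IgG, and 7158 had an unadjusted p below 0.05. Against input 4.48% of the 31189 transcripts were called higher, and 3.6% of the 6106 retained-intron transcripts among them. Reln-213, which made up 14.6% of Reln with IgG, differed by 1.07 on the log2 scale against IgG (limma adjusted p = 0.125) and was called against input at 1.86 (limma adjusted p = 0.0302). Reln-214 and Reln-215 were picked by their RIP values and are given without a test. The median log2 difference against input was 0.48 over retained-intron transcripts and 0.13 over protein-coding ones. By the median this class thus stood higher, but a smaller share of it was called higher than of all transcripts. In the comparison with input, RIP A and B had 56414 and 57726 transcripts above 0, beside 46758 and 44946 in input A and B. The part of this difference in the medians was not tested.

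The full-length mRNA stood higher in the RIP as well. Reln-207 was at 111 and 91.8 FPKM in the RIP, 63.1 and 58.1 FPKM with IgG and 62.6 and 49.7 FPKM in the input. The lowest RIP value was above the highest value of each control. The log2 fold change was 0.73 (limma adjusted p = 0.0857) against IgG and 0.87 (limma adjusted p = 0.0698) against input over transcripts. With protein-coding transcripts alone added up per gene, Reln rose by 0.75 (limma adjusted p = 0.00416) against IgG and 0.79 (limma adjusted p = 0.0026) against input. Reln-201 reached 10.3 FPKM in input B but was near 0 in input A, so its share was not stable between the trios.

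**Figure D3:**
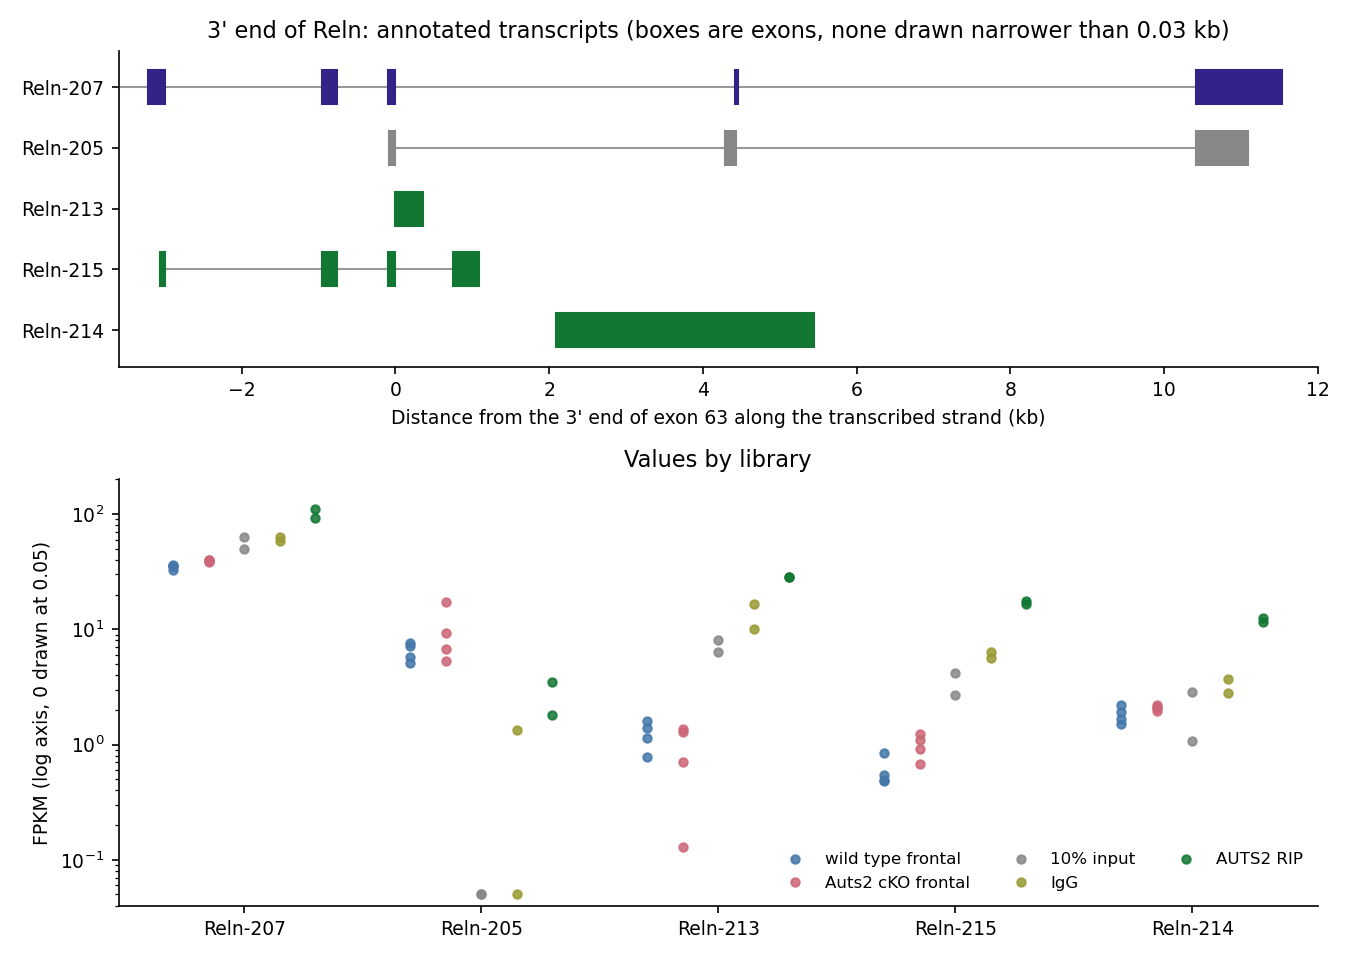
Top, exons of 5 annotated Reln transcripts at the 3' end of the gene, by distance from the end of exon 63 in kb, with no box drawn narrower than 0.03 kb. Bottom, their FPKM in each library on a log axis with 0 drawn at 0.05. Reln-213, Reln-214 and Reln-215 (green boxes) are highest in the 2 AUTS2 RIP libraries, and Reln-205 has its highest value, 17.1 FPKM, in a cKO library.

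The genes that receive the reelin signal were covered by a list of 37, from receptors to the enzymes that end the signal, and all 37 were tested in each comparison. In the cKO 0 of the 37 passed in limma and 4 had an unadjusted p below 0.05, where 7.91% of all genes did. The median log2 difference was −0.04, beside 0 over all genes. The receptor genes were at 26.4 ± 4.55 FPKM for wild type and 23.2 ± 0.951 FPKM in the cKO for Vldlr, and at 76.7 ± 6.16 and 67.6 ± 7.45 FPKM for Lrp8. The adaptor gene Dab1 was at 87.0 ± 7.64 FPKM for wild type and 81.0 ± 5.61 FPKM in the cKO (SD, n = 4 each). Their log2 differences ran from −0.18 to −0.10 with limma adjusted p from 0.641 to 0.686.

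Against IgG, 4 of the 37 genes of the pathway rose and 8 fell, where 13.7% of all genes rose and 9.69% fell, with a median of −0.09 beside 0.02 over all genes. Among those that rose, Adamts3, a protease that cuts reelin, went from 43.5 ± 2.5 FPKM in the IgG to 73.3 ± 6.26 FPKM in the RIP (SD, n = 2 each, log2 difference 0.74, limma adjusted p = 0.00917). The kinase gene Gsk3b fell from 63.03 ± 0.48 to 23.97 ± 1.87 FPKM (−1.36, limma adjusted p = 0.00264). Dcx, which encodes the microtubule-binding protein doublecortin, fell from 176 ± 2.77 to 85.5 ± 8.12 FPKM (−1.04, limma adjusted p = 0.0034). Falls of 0.91 in Pafah1b2, a partner of Lis1, of 0.94 in the Cdk5 activator gene Cdk5r2 and of 0.81 in the adhesion gene Nectin3 also passed. None of Vldlr (0.33), Lrp8 (0.29) and Dab1 (0.10) passed, with limma adjusted p of 0.105, 0.0786 and 0.711. Without IgG A 0 of the 37 passed, and without each of the other 3 libraries in turn 3 to 4 did.

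Against input, 6 genes of the pathway rose and 15 fell, where 19.3% of all genes rose and 16.6% fell, with a median of −0.10 beside −0.02 over all genes. The reelin receptor gene Lrp8 rose from 82.0 ± 6.03 FPKM in the input to 142.5 ± 6.02 FPKM in the RIP (SD, n = 2 each, log2 difference 0.79, limma adjusted p = 0.0031), beside 0.17 for Vldlr and 0.02 for Dab1, which did not pass. Dcx fell from 194 ± 8.42 to 86.9 ± 8.09 FPKM (−1.15, limma adjusted p = 0.0013). Falls in Gsk3b (−0.98), the adaptor gene Crk (−1.52), the cofilin gene Cfl1 (−0.57) and the Lis1 gene Pafah1b1 (−0.75) passed as well. Leaving out 1 library at a time brought the calls from 21 to between 5 and 13. With the length and GC trends removed 1 gene of the pathway rose and 12 fell, and against IgG 1 rose and 9 fell.

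**Figure D4:**
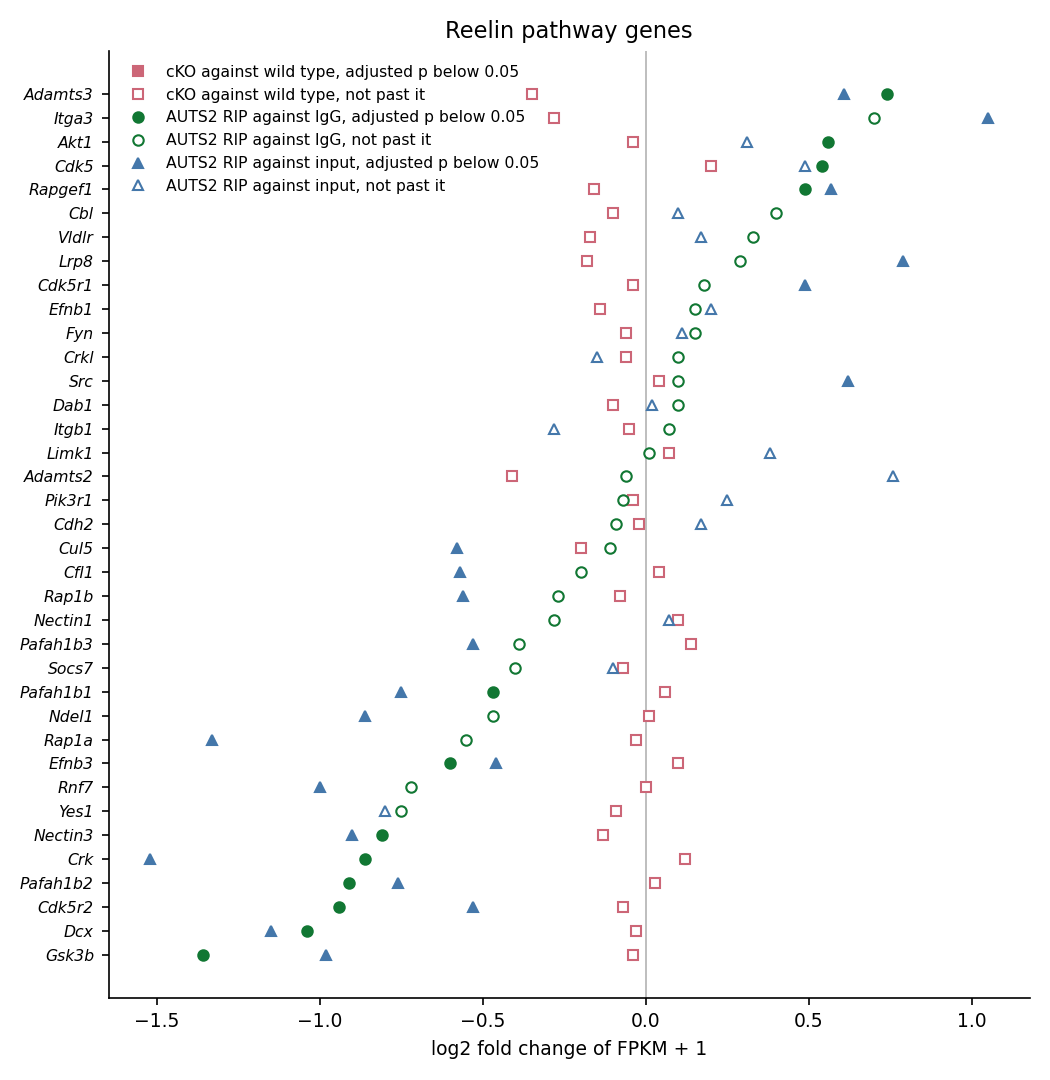
Log2 fold changes of FPKM + 1 for the 37 reelin pathway genes, ordered by the difference between AUTS2 RIP and IgG, with filled marks for a limma adjusted p below 0.05. In the cKO comparison (squares) no mark is filled, and against IgG (circles) 4 filled marks lie above 0 and 8 below.

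A further 15 genes known from Cajal-Retzius cells or their origins were counted beside the members. In the cKO 11 were tested, 0 passed in limma and 3 had an unadjusted p below 0.05, where 7.91% of all genes did. Over all genes, 13.7% rose and 9.69% fell against IgG, and 19.3% rose and 16.6% fell against input. Against IgG 0 of 13 rose and 3 fell, among them Car10 (9.13 ± 0.95 to 3.46 ± 0.312 FPKM, SD, n = 2 each, limma adjusted p = 0.0133), which encodes a carbonic anhydrase-related protein, and the chemokine receptor gene Cxcr4 (13.5 ± 0.285 to 6.93 ± 1.72 FPKM, limma adjusted p = 0.0307). The other was Ebf1, a relative of Ebf3, at 5.91 ± 0.429 and 2.89 ± 0.0651 FPKM (limma adjusted p = 0.0446). Against input 2 rose and 2 fell, among them Cacna2d2, a calcium channel subunit gene, which rose (10.4 ± 1.04 to 20.8 ± 0.888 FPKM, limma adjusted p = 0.00704), and Emx2, a patterning factor gene, which fell (17.3 ± 0.758 to 8.43 ± 2.44 FPKM, limma adjusted p = 0.0191). The GABAergic neuron genes had 0 of 14 called against IgG, with 1 at an unadjusted p below 0.05, and 3 rises (Dlx1, Dlx5 and Dlx6) and 1 fall (Npy) against input. Their summed level was 365 to 385 FPKM in the RIP libraries, beside 347 to 397 FPKM with IgG.

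Over the 8 frontal cortex libraries, the genes whose log2(FPKM + 1) followed that of Reln most closely, of 12785, included Eif4a1, Nudt9, Mpg and Emd, with Pearson r from 0.956 to 0.980. Without cKO 1 and wild type 4, the libraries farthest from the median of Reln, these r ran from 0.728 for Mpg to 0.935 for Emd. Eif4a1, which encodes a translation initiation helicase, was at 364 FPKM in cKO 1 and between 313 and 333 FPKM elsewhere. Trp73 had an r of 0.879 with Reln and 0.393 without those 2 libraries, and Calb2 0.531 and −0.629. Without them r was lower for 5 of the 6 other members and higher for Ndnf, at 0.437 from 0.220. The 8 libraries share a tissue, a table and a scaling.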

How the data were processed

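RNA was sequenced from neonatal mouse frontal cortex (polyA RNA, TruSeq) and from AUTS2 RIP, IgG and input fractions of cortex (total RNA, SMARTer Stranded), per the labels' protocols. The authors deposited FPKM per transcript in 3 tables, per the file headers. Cuffdiff 2.2.1, STAR 2.5, SAMtools and the build GRCm38.p4 (mm10) are listed, without roles, in the submitters' processing notes. How values were filtered and scaled, and whether strand was used, is not stated there, so antisense reads could not be told apart. Genes overlapping Reln stood at 0.88 FPKM or less. Of the 128508 transcripts of a table, 127975 matched GENCODE vM21 by identifier, with 99.475% or more of each library's FPKM. The cKO 4 label and column give different short names and were matched by library number.

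The transcripts of a symbol were summed. Symbols averaging 1 FPKM or more were tested on log2(FPKM + 1), a scale that understates changes of low genes, with limma 3.58.1 (R 4.3.3, trend and robust empirical Bayes, two-sided, Benjamini-Hochberg over all genes, threshold 0.05). Python 3.11.15, pandas 2.3.3, numpy 2.4.6 and matplotlib 3.10.9 made tables and figures. Members and lists were chosen with earlier results of these data known. Named genes are the members, called list genes up to 6 by smallest p, Vldlr, Lrp8, Dab1, Auts2 and the olfactory bulb list. Also named are the 5 genes most like Reln and member transcripts of at least 10% of a gene. A few of these are not reported here. Simulated data of 12786, 14570 and 14458 genes stood for the cKO, IgG and input designs, with 100 genes changed at each fold. The changed genes were drawn only from those above about 5 FPKM. In these designs 95%, 20% and 20% of 1.5-fold and 99%, 99% and 96% of 4-fold changes were recovered. Of the calls 5.83%, 19% and 12.8% were false. The real comparisons called 23.4% (IgG) and 35.9% (input) of genes, far more than were changed here. These shares therefore need not carry over to them. Recovery at the FPKM level of each member was not tested. Pairing of the pull-down libraries comes from the series design, which states matched trios. The deviations of same-lettered libraries correlated at r = 0.00879 (IgG) and 0.012 (input). Alternatives were other pseudocounts, filters, scalings and limma settings, a replicate block, an Xist state term, length and GC trends removed, and each library left out. Of the members, 4 were in the RefSeq promoter table.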

Additional observations from a re-analysis of the deposited data

How the results depend on the processing

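Precision is limited by 2 libraries a group in the pull-down and by unknown depth. The frontal cortex groups were not alike in Xist. Its mean was 54.3 FPKM over the wild types (range 0.0854 to 217), whereas the cKO mean was 169 FPKM (range 0.390 to 250). With the Xist state term the cKO difference of Reln was 0.19, beside 0.26 in the reported fit. Sex was not tested apart from this term. Reln kept its direction in every alternative run, at 0.17 to 0.30 in the cKO, 0.57 to 0.99 against IgG and 0.69 to 1.23 against input, on the log2 scale. It lost its call once, against IgG without IgG A, where the members called fell from 1 to 0 (range 0 to 1 over single libraries left out). In that setting 0 genes in all passed, against 3406 with all 4 libraries and the reported settings. Calb2 changed sign in the cKO with an Xist state term (0.01) and without cKO 2 (0.07), cKO 3 (0.13), cKO 4 (0.02) or wild type 1 (0.15), against IgG without IgG A (0.21), and against input without input A (0.41). Trp73 and Lhx5 turned with the length and GC trends removed, to −0.04 and −0.07 against IgG and −0.29 and −0.39 against input. Lhx5 also turned without IgG B (−0.25). Ndnf turned without IgG B (0.08), RIP B (0.02, against input) and input B (0.17). With single libraries left out, the range against IgG was −0.25 to 0.38 for Lhx5, −0.96 to 0.21 for Calb2 and −0.72 to 0.08 for Ndnf, and against input −0.74 to 0.41 for Calb2 and −0.33 to 0.17 for Ndnf. In the cKO it was −0.25 to 0.15 for Calb2. The causes were not tested. Reelin pathway calls were 4 against IgG and 11 against input without limma's trend and robust settings, 13 against input with the trends removed, and 0 to 4 (IgG) and 5 to 13 (input) with a library left out. Calls over all genes were 1876 (IgG) without trend and robust settings, 794 and 1036 against IgG without RIP A and RIP B, and 1395 and 1905 against input without them. With the replicate block, the trio letter, Reln had a limma adjusted p of 0.00261 against IgG and 0.000408 against input, and no member's call changed. In frontal cortex r ran from −0.0394 to 0.176 between libraries of the same number and from −0.149 to 0.162 between those of different numbers. The highest r was that of wild type 1 with cKO 1. With a block for these numbers, Reln had a limma adjusted p of 0.551 in the cKO.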
